A study of Mus musculus with 12 samples.

Results

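Brain RNA libraries of mice were chosen here by their reads of C1qtnf3 (ENSMUSG00000058914), which codes the protein in the series title, and not by their treatment labels. The high group holds the 6 of 12 libraries with 1000 or more C1qtnf3 reads, and the low group holds the other 6, with under 1000. The grouping used the reads themselves, so the C1qtnf3 difference between the groups is a description and was given no test. The member just inside the threshold had 1071 reads and the library just outside it had 28.

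Newborn mice had been injected in the cerebral ventricles with PBS or with rAAV, a recombinant adeno-associated virus that delivers genes, carrying collagen domain constructs, and brains were taken at 3 months of age. A frozen hemibrain was pulverised, and polyadenylated RNA of the forebrain was sequenced. The labels give 4 groups of 3 libraries, females and males given PBS and females and males given the construct. Strain, promoter, serotype and dose are not given in the sources used here, and there was no group given an empty or unrelated rAAV, so virus and construct cannot be told apart. The labels do not say that each sample came from a separate mouse, so p-values speak to the spread between libraries alone. In bulk RNA, fewer cells of a type and less RNA per cell cannot be told apart.

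C1qTNF3 belongs to the C1q/TNF family of secreted proteins, in which a stretch of glycine-X-Y repeats forms a collagen-like triple helix ahead of a globular C1q domain. Such collagen domains bring secreted chains together as trimers and larger assemblies. Immunoglobulin kappa variable genes code the variable part of antibody light chains and begin with a leader, a signal peptide that sends the chain into the secretory pathway. Kappa leaders are widely placed ahead of engineered secreted proteins, and a single-chain antibody fragment (scFv, named in the title) joins a heavy and a light variable domain. The labels give no sequence of the constructs, and where within a gene the reads fell was not tested.

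The sequences of the 3 genes that set the high libraries apart are shown first. They are reference sequences from GENCODE M21 transcripts of the GRCm38 build, given without coordinates because the deposited counts were made on GRCm39. The collagen repeat of C1qtnf3 (chromosome 15, plus strand) is shown because the title names this domain. It runs over codons 45 to 113 of 246 as 23 repeats, with the glycine codons in capitals.
C1qtnf3: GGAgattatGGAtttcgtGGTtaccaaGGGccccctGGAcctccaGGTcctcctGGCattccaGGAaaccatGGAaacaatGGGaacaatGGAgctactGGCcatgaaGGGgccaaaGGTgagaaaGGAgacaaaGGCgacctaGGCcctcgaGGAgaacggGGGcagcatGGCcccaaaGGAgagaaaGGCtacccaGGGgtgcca

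The first 180 bases of Igkv3-12 and Igkv3-7 (both chromosome 6, plus strand) are shown because both genes were called below and are close relatives. Each line starts at the ATG of the leader, and capitals mark the 4 bases at which the pair differ.
Igkv3-12: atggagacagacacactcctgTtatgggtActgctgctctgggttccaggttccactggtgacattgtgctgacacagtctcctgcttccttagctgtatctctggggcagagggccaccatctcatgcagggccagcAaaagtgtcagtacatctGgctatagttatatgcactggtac
Igkv3-7: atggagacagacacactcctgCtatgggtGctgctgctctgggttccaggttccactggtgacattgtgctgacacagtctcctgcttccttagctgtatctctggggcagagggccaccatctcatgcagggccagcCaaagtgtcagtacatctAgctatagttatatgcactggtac
Counted from 1 at the first base of the transcript, with the base of Igkv3-12 first, the differences shown are T22C, A30G, A139C and G157A. Over their 359 bases the transcripts differ at 12 positions and are 96.7% identical, and their first 60 bases, with the leader, differ at 2. The longest run they share is 108 bases, longer than a 75-base read. Whether the counting split reads between such relatives is not given in the sources used here, so the division of reads between Igkv3-12 and Igkv3-7 is uncertain.

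The high group did not follow the labels. It held 4 libraries labelled collagen domain (female 2 and male 1, 2 and 3) and 2 labelled PBS (female 2 and male 1). The low group held 4 libraries labelled PBS (female 1 and 3, male 2 and 3) and 2 labelled collagen domain (female 1 and 3). Xist, the X-silencing RNA of female cells, and Ddx3y, a Y-linked helicase gene, went against the sex label in PBS female 2, PBS male 1, collagen domain female 1 and collagen domain male 3. In all, 4 libraries went against the treatment label, 4 against the sex label and 3 against both. By Xist and Ddx3y each read-defined group held 3 female and 3 male libraries. Libraries are named below by their labels, and results are also given without those that the reads contradict.

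Libraries held 39272127 to 52323985 counted reads and 24489 to 25284 detected genes. Mitochondrially encoded genes took 7.37 to 8.54% of reads in the high libraries and 7.57 to 9.86% in the low ones, and a two-sided exact permutation test of this share gave p = 0.156 over 924 arrangements. Hindbrain and cerebellum genes were high in PBS female 2, collagen domain female 2 and collagen domain male 2 of the high group and in PBS female 3 and PBS male 3 of the low group, and PBS male 1 lay between. Their mean log2 CPM (counts scaled to library size) ranged from -2.79 to 3.38 in the high and from -2.60 to 3.01 in the low libraries, so both groups held libraries at either end. Of 15 library measures compared in this way, covering depth, mitochondrial share and tissue composition, none passed (smallest adjusted p = 0.851, exact permutation tests).

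C1qtnf3 lay at 22.2 CPM in PBS female 2, 58.1 in collagen domain male 3, 59.1 in PBS male 1, 69.6 in collagen domain male 2, 88.2 in collagen domain male 1 and 107 in collagen domain female 2. The high libraries averaged 67.3 ± 28.9 CPM (SD, n = 6) and spanned a 4.80-fold range. The low libraries averaged 0.443 ± 0.221 CPM (SD, n = 6), and the ratio of the means was 152. This gap follows from the grouping. The 2 high libraries labelled PBS were the lowest and the third lowest of them.

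Among the low libraries C1qtnf3 was read at 0.186 CPM in collagen domain female 3, 0.251 in PBS female 1 and 0.320 in PBS female 3, the 3 with high Xist. It was read at 0.534 CPM in collagen domain female 1, 0.660 in PBS male 2 and 0.708 in PBS male 3, the 3 with high Ddx3y. The 2 sets of 3 did not overlap and rest on 8 to 17 and 23 to 28 reads per library. The split was chosen after the values were seen and was not tested.

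**Figure D1:**
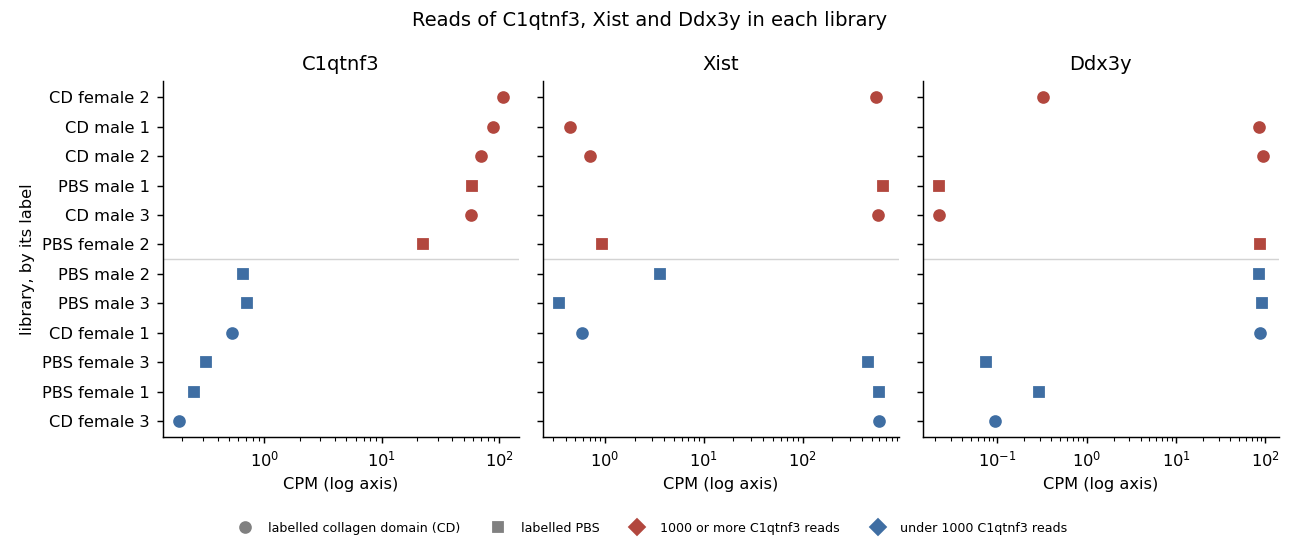
CPM of C1qtnf3, Xist and Ddx3y on log axes for the 12 libraries, named by label (CD, collagen domain), coloured by C1qtnf3 reads and shaped by labelled treatment. The 6 high libraries lie between 22.2 and 107 CPM of C1qtnf3, and both labelled treatments and both Xist states occur above and below the grey line between the groups.

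Genes beside C1qtnf3 on chromosome 15 were measured next. Rai14, an actin-binding protein gene that neighbours it on one side, had a log2 fold change of -0.04 (SE 0.0940), and Amacr, a racemase of branched-chain fatty acids on the other side, had -0.02 (SE 0.0777). Rad1 had -0.02 and Rxfp3, a relaxin family receptor gene, had 0.02. Neither Rai14 nor Amacr was called (edgeR, adjusted p = 0.864 and 0.911).

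Across all genes, 2 rose in the high libraries and none fell, and both were kappa variable genes. The fit tested 18484 genes, C1qtnf3 left out, with edgeR's quasi-likelihood test and a Benjamini-Hochberg adjusted p threshold of 0.05. The share called higher was 0.0108% and the share called lower was 0%. DESeq2 called the same pair higher and 2 more genes lower, both described below, and limma-voom called the same pair higher and 0 lower. At an unadjusted p under 0.05 there were 1224 genes, where 924 would be expected with no difference. Both called genes were known from earlier results of these data, and both passed the filter on low counts only through the high group, which favours their calls. With no filter, edgeR called the same pair and no other gene, Igkv3-12 at an adjusted p of 1.44e-05 and Igkv3-7 at 0.000589.

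Igkv3-12 (ENSMUSG00000094117) had 13 reads in PBS female 2, 27 in PBS male 1, 54 in collagen domain female 2, 36 in male 1, 42 in male 2 and 37 in male 3. In the low group it had 1 read, in PBS female 3, and 0 in the other 5 libraries. The groups did not overlap, and all 6 high libraries carried the gene, the 2 labelled PBS included. The high libraries together held 209 reads, and the ratio of read rates was 212 (95% exact interval 37.7 to 8431, which covers counting error only). The fitted log2 fold change was 6.91 (SE 0.597), a value that depends on the prior count because the low group holds 1 read, and edgeR gave an adjusted p of 0.000394.

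Igkv3-7 (ENSMUSG00000076598) had 12 reads in PBS female 2, 20 in PBS male 1, 42 in collagen domain female 2, 25 in male 1, 34 in male 2 and 31 in male 3. It had 0 reads in every low library. Against a floor of 3 counts over the low group, the 164 reads of the high group were at least 55.6-fold higher. The edgeR adjusted p was 0.0291. The call was less stable than that of Igkv3-12: with 1 library left out at a time, the adjusted p lay between 0.00676 without PBS female 2 and 0.129 without collagen domain male 1, and the call was lost on leaving out any of 9 libraries (PBS female 1, PBS male 1, PBS male 3, collagen domain female 1, 2 and 3, and collagen domain male 1, 2 and 3). Igkv3-12 stayed called without each library, at an adjusted p of at most 0.0483.

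Both genes were low beside C1qtnf3 itself. Per 1000 C1qtnf3 reads, the high libraries held 11.9 ± 1.88 reads of Igkv3-12 (SD, n = 6, at most 14.2) and 9.56 ± 2.18 reads of Igkv3-7 (range 6.96 to 11.9). Igkv3-7 had 0.797 ± 0.0797 reads for each read of Igkv3-12. The values per C1qtnf3 read spread less than C1qtnf3 did, and those of PBS female 2 and PBS male 1 lay within the range of the other 4. Igkv3-7 per read of Igkv3-12 was highest in PBS female 2, at 0.923, above the range of the other 5 (0.694 to 0.838).

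Within the 6 high libraries, where the threshold does not fix the order, both genes were compared with C1qtnf3 in CPM. C1qtnf3 reads also chose these libraries, and both genes were picked for their reads in them. The relations and their p-values thus describe these 6 libraries and are no independent support for a link. For Igkv3-12 Pearson's r was 0.92 (exact permutation p = 0.0167, adjusted 0.0333) and Spearman's rho was 0.886 (exact p = 0.0333, adjusted 0.0667), over 720 orders and 2 relations. For Igkv3-7 r was 0.84 (exact p = 0.0389, adjusted 0.0389) and rho was 0.714 (exact p = 0.136, adjusted 0.136). Without collagen domain female 2 and PBS female 2, the libraries farthest from the median, r was 0.52 and 0.16 over 4 libraries, so the relation rests on those libraries. Split by labelled treatment, the high group holds 2 and 4 libraries, too few for a correlation of their own.

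**Figure D2:**
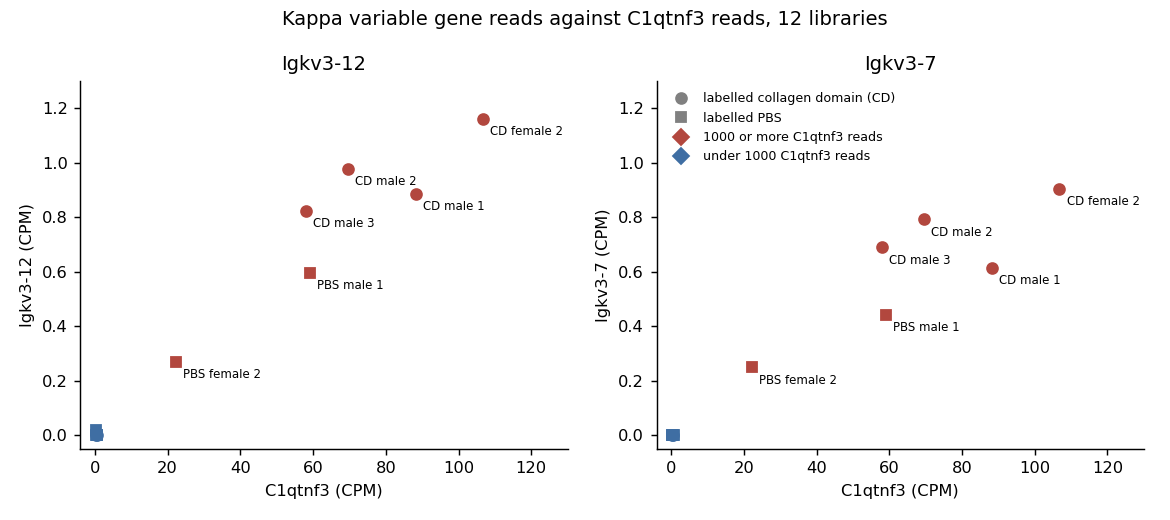
CPM of Igkv3-12 (left) and Igkv3-7 (right) against CPM of C1qtnf3, 1 point per library, coloured by C1qtnf3 reads and shaped by labelled treatment. The low libraries sit at the origin, PBS female 2 is the lowest of the high libraries on every axis and collagen domain female 2 the highest.

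Other antibody genes did not separate the groups. Of 281 immunoglobulin variable genes in the table, 118 had a read, 19 had 10 or more over the 12 libraries, and Igkv3-12 and Igkv3-7 alone passed the filter. None of the other 17 with 10 or more reads was free of overlap between the groups. Among the 18484 genes tested, 0.108% lay above and 0.0812% below without overlap, so none among 17 is near that share. These 17 had 11 to 65 reads and at least 1 library without a read in each group, so they could hardly separate. All variable genes other than the pair had 348 reads in the high and 286 in the low libraries, and the 175 heavy chain variable genes had 86 and 71. The 7 other genes of the Igkv3 family had 4 and 2 reads.

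The remaining variable genes with 10 or more reads mostly had their reads in 1 library. Igkv8-30 had 38 of 65 reads in PBS male 1 and Igkv8-19 had 24 of 35 in collagen domain female 2. Igkv6-23 had 20 reads, all in low libraries, 16 of them in collagen domain female 3. Igkv4-70 had 13 of 23 in PBS female 1 and Igkv4-55 had 10 of 22 in collagen domain female 2. Igkv6-20 and Igkv6-15 had 7 and 1 reads in the high group against 11 and 10 in the low, and Ighv3-6 had 3 against 12. Ighv1-64 had 13 reads, 12 of them in PBS male 1, and Ighv1-81 had 8 of 12 in collagen domain female 2.

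Other variable genes with few reads had more of them in the high group. Igkv1-99 had 13 reads in the high and 1 in the low group, with 11 in collagen domain female 2, and Igkv5-43 had 11 and 1, with 9 in collagen domain male 1. Igkv10-96 had 11 and 2 reads, in 5 high and 2 low libraries, and Iglv1 had 11 and 3, in 5 high and 3 low libraries. Igkv14-111 had 10 and 1 reads and Igkv12-44 had 8 and 6, while Igkv1-117 had 3 and 8. In each of these the groups overlapped, and none passed the filter to be tested.

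The constant and joining chain genes of antibody-making cells overlapped fully. Igkc, the kappa constant gene, had 14 to 109 reads in the high and 17 to 87 in the low libraries (log2 fold change 0.25, edgeR adjusted p = 0.867). Jchain, which links antibody polymers, had 12 to 30 reads in the high libraries and 11 to 73 in the low ones, with the most in PBS female 1. Ighm, the mu heavy chain, had 558 to 1060 and 659 to 1204, and Ighg2c had 64 to 210 and 53 to 236. Igha had 41 reads in the high and 70 in the low group, Ighd had 105 in each, and the 92 reads of Ighg2b in the high group included 80 in PBS male 1. Ighg1 had 17 reads in the high and 4 in the low group, Ighg3 had 13 in each and Iglc2 had 10 in each.

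B and plasma cell markers were described as a list beside the kappa genes. Of 17, 8 were measured, none was called and the median log2 fold change was 0.06, with 5 above 0. Their summed level was 21.9 to 32.1 CPM in the high and 23.8 to 34.3 CPM in the low libraries. Ighm was the main part of that sum. The list median was -0.06 without collagen domain female 2. The summed marker levels thus overlapped between the groups. Igkv3-12 and Igkv3-7 reached at most 1.16 and 0.903 CPM, small beside that sum, and the source of their reads was not tested.

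Over all gene IDs, filtered or not, 2 had a read in every high and in no low library, Igkv3-7 and 4930556N13Rik, the latter with 10 reads in all. No ID showed the reverse. Among the 18484 genes tested, 20 lay higher in all 6 high than in all 6 low libraries in CPM, which is 0.108%, and 15 lay lower, which is 0.0812%. With no difference, each of the 924 splits into 6 and 6 is equally likely, which gives shares of about this size each way. Such separation alone thus does not mark a gene as differing. Both kappa genes are among the 20. The total of 35 rose to 156 on leaving out PBS female 3 and to 112 without collagen domain male 3. Leaving out any library makes separation easier, so a rise comes with the smaller group apart from filtering and scaling.

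Ccl28, a chemokine gene of mucosal epithelia, had the third smallest p and was not called. Its level was 0.140 to 0.486 CPM in the 6 high libraries. Among the low libraries it was 4.46 CPM in PBS female 3, 3.75 in PBS female 1, 3.52 in collagen domain female 3, 2.96 in PBS male 3, 1.14 in collagen domain female 1 and 0.354 in PBS male 2. Of the low libraries, PBS male 2 alone lay within the high range, and the other 5 lay above it. The log2 fold change was -3.27 (SE 0.548, edgeR adjusted p = 0.305). It was called lower by DESeq2, with a term for the sex state (adjusted p = 0.0464, edgeR) and without PBS male 2 (adjusted p = 0.0073, edgeR).

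Neighbours of Ccl28 on chromosome 13, examined after their values were seen, differed in the same direction. Of 12 genes tested among Ccl28 and the 8 on each side, 9 had a log2 fold change below 0 and 6 had an unadjusted p under 0.05, and none was called. Tmem267, a gene of a transmembrane protein next to Ccl28, had -1.03 (SE 0.245, edgeR adjusted p = 0.593), with 2.96 to 6.39 CPM in the high and 4.29 to 14.3 CPM in the low libraries. The RIKEN gene 4833420G17Rik had -1.17 (SE 0.403), and the zinc finger gene Zfp131 had -0.51 (SE 0.142). Nnt, which passes electrons between NADH and NADPH in mitochondria, had -0.26 (SE 0.0928) and Nim1k had -0.20 (SE 0.0799). Hmgcs1, a cholesterol synthesis gene next to Ccl28 on the other side, had 0.05 (SE 0.0657). PBS male 2 carried the low level of Tmem267 and 4833420G17Rik too, at 4.29 and 7.12 CPM. Among the high libraries, PBS male 1 and collagen domain male 3 had 16.8 and 14.5 CPM of 4833420G17Rik and 38.6 and 42.8 CPM of Zfp131. The other high libraries had at most 7.76 and 33.5 CPM of these genes. PBS male 1 and collagen domain male 3 also had the most Ccl28 of the high libraries, at 0.486 and 0.445 CPM. The other high libraries had at most 0.215 CPM of Ccl28. Tmem267 differed, at 4.44 CPM in PBS male 1 and 2.96 CPM, its lowest value, in collagen domain male 3. How the neighbours vary with Ccl28 from library to library was not tested.

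**Figure D3:**
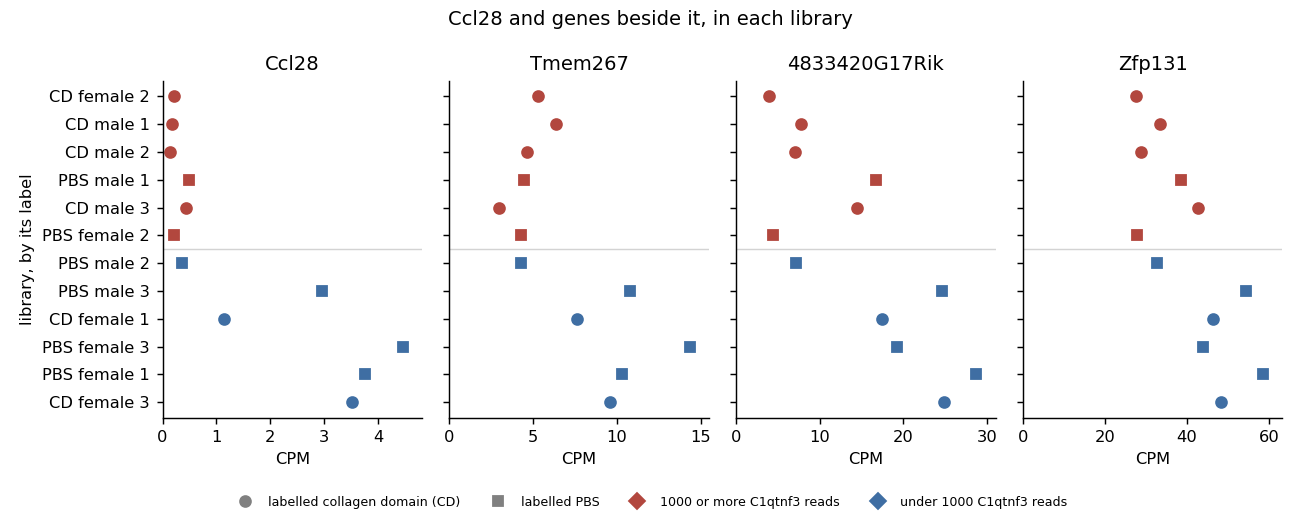
CPM of Ccl28, Tmem267, 4833420G17Rik and Zfp131 in the 12 libraries, in the order of the C1qtnf3 plot, coloured by C1qtnf3 reads and shaped by labelled treatment. Among the low libraries PBS male 2 lies with the high ones, at 0.354 CPM of Ccl28, and the other low libraries lie at 1.14 CPM or more.

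The other genes among the 25 of smallest p differed by less and were not called, each at an edgeR adjusted p of 0.593 except Cxcl5 at 0.592. Over all genes, separation without overlap was no more common than no difference between the groups would give. Below the low libraries without overlap were Cxcl5, a neutrophil chemokine gene (0.582 to 0.768 CPM against 0.862 to 1.40, log2 fold change -0.78), Fxyd2, a sodium pump regulator (-0.73), Cbln4, a synapse organiser of the C1q superfamily (-0.20), Gca (-0.22), Klhl15 (-0.29), Ogfrl1 (-0.18), Tnmd (-0.53), Gstm2 (-0.44) and Gm5441 (-0.39). Above them without overlap were Plekhg6 (0.311 to 0.489 CPM against 0.168 to 0.262, log2 fold change 0.92), the transcription factor gene Pou6f1 (0.33), Mamstr (0.45), Tmem253 (0.67), Ccdc102a (0.46), Pml, of nuclear bodies (0.25), and Gm8337 (0.32). The groups overlapped for ENSMUSG00000094114 (-1.07, called lower by DESeq2 at an adjusted p of 0.00981), Etnppl (-0.58), C530008M17Rik (0.20), the class I gene H2-Q4 (0.55) and the TNF receptor gene Tnfrsf1b (0.46).

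**Figure D4:**
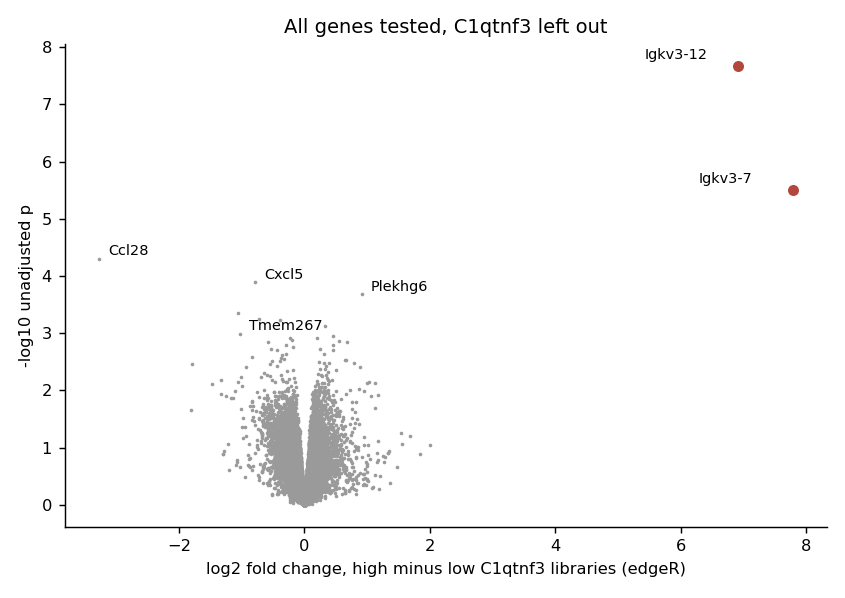
Log2 fold change of the high minus the low libraries against -log10 of the unadjusted edgeR p for the 18484 genes tested, 1 point per gene, with the called genes in red. The called genes are Igkv3-12 and Igkv3-7, whose places on the x axis depend on the prior count of the fit, since the low group holds 1 and 0 reads of them, and Ccl28 lies at -3.27.

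The libraries were also compared by sex state. None of the 18484 genes had a high against low difference that itself differed between female and male libraries (0% called, edgeR interaction, smallest adjusted p = 0.9997, 310 genes at an unadjusted p under 0.05). DESeq2 and limma-voom also called 0 (290 and 338 at an unadjusted p under 0.05). The genes of smallest p were Gm4134, at 1.65 in female and -0.75 in male libraries, 1700001G11Rik, at 0.33 and -1.12, and the class II chaperone gene H2-DMb1, at 1.18 and -0.69.

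Gene lists were described by counts and medians beside all genes tested, whose median log2 fold change was 0.00 with 9484 of 18484 above 0. Of 481 distinct members measured in 33 lists, none was called and 48 had an unadjusted p under 0.05. Relatives of the collagen domain gene came first. Of 11 C1q/TNF family members and adiponectin receptors measured, 4 were above 0 with a median of -0.04, and the median was 0.00 without PBS female 1. C1qtnf4, a brain-expressed member, had 76.8 to 89.2 CPM in the high and 82.1 to 97.4 CPM in the low libraries (-0.07, SE 0.0554). C1qtnf9 had -0.32 (SE 0.361) and C1qtnf12 had -0.13 (SE 0.157), and the receptor gene Lrp1 had 0.18 (SE 0.0933).

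Genes that fold and export collagens and other secreted proteins had medians close to that of all genes. For collagen folding and secretion 18 of 22 members were above 0 with a median of 0.04 and none had an unadjusted p under 0.05. Plod1 and Plod3, lysyl hydroxylases of collagen, had 0.16 (SE 0.103) and 0.12 (SE 0.0771), and the coat and cargo genes Sec31a and Mia3 had 0.11 (SE 0.0636) and 0.09 (SE 0.0561). For ER chaperones and the unfolded protein response 16 of 25 were above 0 with a median of 0.03. Sel1l, of ER-associated degradation, had 0.12 (SE 0.0577), Hyou1 had 0.13 (SE 0.0670) and Dnajb9, an ER stress target, had -0.22 (SE 0.102). Cytosolic heat shock genes had 6 of 14 members above 0 and a median of -0.08.

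Immune lists were mixed. MHC class I and II genes had 12 of 14 members above 0 and a median of 0.29 and 4 at an unadjusted p under 0.05. H2-Eb1, a class II chain, had 1.72 to 3.59 CPM in the high and 0.753 to 1.97 CPM in the low libraries (0.89, SE 0.255, edgeR adjusted p = 0.593). H2-Aa had 0.55 (SE 0.225), Cd74, the invariant chain, had 0.42 (SE 0.193) and H2-K1, a class I chain, had 0.33. In each the groups overlapped. The list's mean level was highest in collagen domain female 2, and its median lay between 0.17 and 0.36 over the alternatives.

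Homeostatic microglia genes had 6 of 13 members above 0 and a median of -0.01, and Aif1 had -0.45 (SE 0.161). Activated microglia genes had 4 of 17 members above 0 and a median of -0.05. Interferon-stimulated genes had 13 of 18 members above 0 and a median of 0.10, and Oas1a had 0.55 (SE 0.213). The median was -0.03 without the 4 libraries that go against their treatment label and -0.10 without the 5 that go against either label. Complement genes had a median of 0.05, reactive astrocyte genes 0.04 and border macrophage and myeloid genes 0.12. Without collagen domain male 2 the border macrophage median was -0.09. Without PBS male 3 the medians were 0.15 for complement, 0.20 for reactive astrocyte, 0.07 for activated microglia and 0.03 for homeostatic microglia genes, and without PBS female 1 the complement median was 0.00. Ccr2, a monocyte receptor gene, had 1.12 (SE 0.425). The median of the T and NK cell list was -0.01, and 0.05 without collagen domain female 3.

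The energy and translation lists lay on the low side. Nuclear oxidative phosphorylation genes had 1 of 24 members above 0 and a median of -0.29 and 13 at an unadjusted p under 0.05, none of them called. Cox7b, a cytochrome oxidase subunit, had 99.8 to 184 CPM in the high and 117 to 313 CPM in the low libraries (-0.56, SE 0.223, edgeR adjusted p = 0.593). Cytosolic ribosomal protein genes had 0 of 24 members above 0 and a median of -0.29 and 7 at an unadjusted p under 0.05. Rpl26 had 101 to 248 CPM in the high and 147 to 475 CPM in the low libraries (-0.83, SE 0.297). In both lists the mean level was highest in PBS female 1 and PBS male 3, low libraries that also had the highest mitochondrial shares (9.86 and 9.67%). It was lowest in collagen domain female 2. The part of the mitochondrial share in these differences was not tested.

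Immediate early genes of neuronal activity had a median of -0.34 with 0 of 19 above 0 and none at an unadjusted p under 0.05. Egr2 had -0.90 (SE 0.557) and Dusp1 -0.34 (SE 0.246). The mean level of that list ranged from 3.83 to 5.03 log2 CPM in the high and from 4.14 to 5.46 in the low libraries, and its median was -0.11 when collagen domain female 3 was left out and -0.49 when PBS male 1 was. Glucocorticoid-responsive genes had 2 of 13 members above 0 and a median of -0.20, and Pdk4 had -0.38 (SE 0.103). Genes of the p53 response had a median of -0.06 and circadian clock genes -0.06, with Sesn2, a stress-induced p53 target, at 0.22 (SE 0.0712) and the clock repressor Nr1d1 at 0.22 (SE 0.0657).

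Vessel genes lay on the high side. Of 18 endothelial and mural genes, 15 were above 0 with a median of 0.17, and 5 had an unadjusted p under 0.05. Flt1, a VEGF receptor, had 36.8 to 54.8 CPM in the high and 30.0 to 43.8 CPM in the low libraries (0.40, SE 0.111, edgeR adjusted p = 0.593), and Pdgfrb, of pericytes, had 0.29 (SE 0.0918). The list's mean level overlapped between the groups (exact permutation p = 0.0628, adjusted 0.851). Fibroblast and collagen genes had 13 of 17 members above 0 and a median of 0.11, and oligodendrocyte genes 0.06 with 14 of 16 above 0.

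Regional genes varied widely within both groups. Of 20 hindbrain and cerebellum genes, 14 were measured and all 14 were above 0 with a median of 0.78, yet none had an unadjusted p under 0.05, and the summed level ran from 19.9 to 699 CPM in the high and from 19.9 to 544 CPM in the low libraries. With 1 surrogate variable in the fit the median was -0.26, and without PBS male 3 it was 1.56. Thalamus, striatum, and cortex and hippocampus genes had medians of -0.06, -0.05 and -0.09. Hypothalamus genes had 0.13, ependyma genes -0.15, choroid plexus genes 0.00, erythroid genes 0.08, and genes of the amyloid precursor and its secretases 0.08. The hypothalamus median was -0.13 without collagen domain male 3 and 0.43 in the 8 libraries whose treatment label goes with the reads. The choroid plexus median was -0.14 without PBS female 1 and 0.25 in those 8 libraries. With 1 library left out the median was also turned for thalamus (0.01 without PBS male 2), striatum (0.03 without collagen domain female 3) and erythroid genes (-0.01 without collagen domain male 2).

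**Figure D5:**
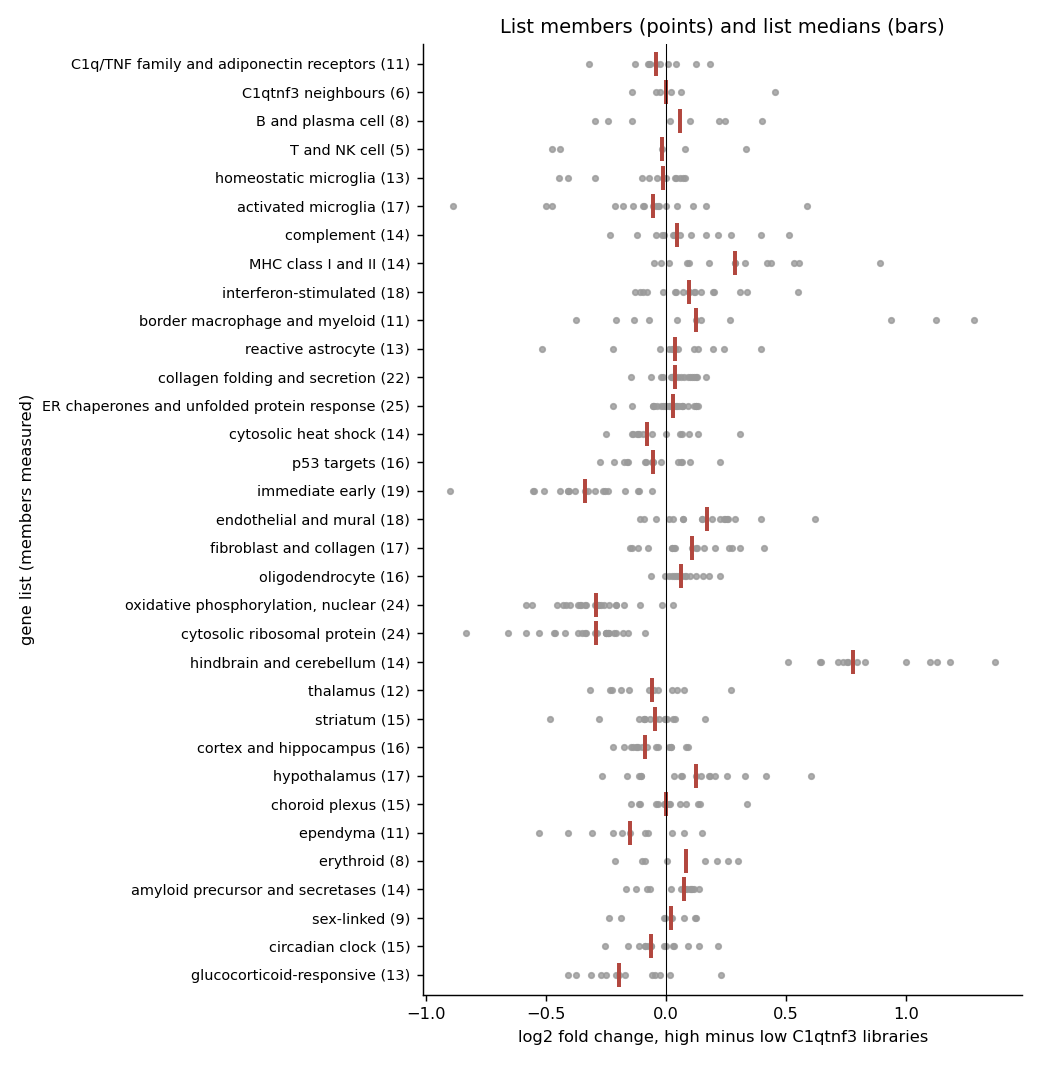
Log2 fold change of the high minus the low libraries for each measured member of each gene list (grey points), with the list median as a red bar and the number of members measured in brackets. Medians lie between -0.34 (immediate early) and 0.29 (MHC class I and II), except hindbrain and cerebellum at 0.78.

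Without the 4 libraries that go against their treatment label, 4 high and 4 low libraries remained and the same 2 genes were called, Igkv3-12 at an adjusted p of 0.00254 and Igkv3-7 at 0.0295 (edgeR). Without the 5 that go against either label, 3 high and 4 low remained. Igkv3-12 was called again (adjusted p = 0.0121) while Igkv3-7 was not (adjusted p = 0.148), and Btg2, an antiproliferative immediate early gene, was called lower. Oxidative phosphorylation and ribosomal protein genes had medians of -0.48 and -0.48 in those 7 libraries.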

How the data were processed

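A TruSeq kit without strand marking and paired 75-base reads were used, per the labels' protocols. The deposited values are raw counts of reads for each Ensembl ID. Per the submitters' processing notes, STAR, DESeq2 and GRCm39 were used, in roles that the notes do not state. Counting tool, strand setting and annotation release are not given in the sources used here. Of 43629 IDs, 42462 took symbols from GENCODE M21.

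The 12 libraries were split at 1000 C1qtnf3 reads. Members, lists and tests were chosen with earlier results of these data known. The test was edgeR 4.0.16 in R 4.3.3 (filterByExpr on the 2 groups, TMM, robust quasi-likelihood F-test, no covariate, two-sided, Benjamini-Hochberg adjustment without C1qtnf3; common biological coefficient of variation 0.165). CPM uses TMM-scaled totals. List levels are mean log2 CPM with a prior count of 2. Named are C1qtnf3, the 25 genes of smallest p, 3 for the interaction, up to 4 members of smallest p per list described, and immunoglobulin genes with 10 or more reads; chromosome neighbours were chosen after their values were seen. No pair of libraries agreed within sampling noise (chi-square per degree of freedom 7.00 to 109 over 66 pairs). Alternatives used DESeq2 1.42.0, limma 3.58.1 and sva 3.50.0. The fit was tested on simulated data.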

Additional observations from a re-analysis of the deposited data

Results flagged for a closer look

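Within the high and the low libraries, the lowest or the highest library was set against the rest of its group for the named genes, total reads, mitochondrial share and reads of the kappa genes per C1qtnf3 read. Of 57 such groups, 2 held a library far from the others, and chance flags about 1 in 20 groups. Among the low libraries, Igkv3-12 was at 0.0188 CPM in PBS female 3, which is 1 read, and at 0 in the other 5. Ogfrl1 was at 213 CPM in PBS female 1, against 182 to 193 CPM in the other low libraries.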

How the results depend on the processing

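The main fit called 2 genes. The count was 4 with DESeq2, which added Ccl28 and ENSMUSG00000094114 as lower, and 1 (Igkv3-12) with a labelled sex term, a hindbrain term or 1 surrogate variable. It was 0 with a filter of 1 CPM in 6 libraries, which removes both kappa genes, and 0 with a threshold of 2000 C1qtnf3 reads, which moves PBS female 2 to the low group. It lay between 1 and 3 on leaving out 1 library. With a replicate block it was 1, Igkv3-12. Same-numbered libraries did not deviate together (7 of 18 pairs correlated above 0.1, from -0.36 to 0.568, against 17 of 36 other pairs), so the number is only a number.

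Genes without overlap numbered 35, and 42 to 156 with 1 library left out, where a rise comes with the smaller group. The correlation with C1qtnf3 lay between 0.80 and 0.96 for Igkv3-12 and between 0.63 and 0.90 for Igkv3-7 with 1 high library left out. Over these settings and a log2 scale, the exact permutation p was no longer under 0.05 in 2 for Igkv3-12 and in 5 for Igkv3-7. Igkv3-12 kept its call in 27 of 28 alternatives and Igkv3-7 in 12 of 28, with the direction kept in all of these. These counts include an adjusted p threshold of 0.1 and a threshold of 100 C1qtnf3 reads, which leaves the groups unchanged. Neither of these settings could lose a call. The direction could hardly turn either, because the low group held almost no reads of the pair. No direction reversed among the 25 genes of smallest p, which were picked by p in these same libraries, so this says little about stability. List members and other immunoglobulin genes were not followed one by one. Read numbers of 12 to 54 limit the precision of both kappa genes.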
